A study of Mus musculus with 10 samples.

Results

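Astrocyte marker genes were followed in the hippocampus of old mice on a control diet or on long-term calorie restriction. The 10 genes considered were Gfap, Vim, Aqp4, Gja1, Slc4a4, Slc1a2, Slc1a3, Glul, Fgfr3 and Aldoc. A transcript is read by a set of short probes, and every probe set was taken that the platform's annotation assigns to 1 symbol among them. This gave 14 of the array's 12488 probe sets, for 9 of the 8251 genes that have a probe set of their own. Slc1a3 had none and was dropped. The animals were male C57BL/6 mice aged 30 months, 5 fed the control diet and 5 calorie restricted, with hippocampal total RNA of 1 mouse on each Affymetrix array. Neither the degree of restriction nor the age at its start is given in the sources used here. Signals are log2 values of the deposited intensities, and replicates are named by their number in the labels.

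Astrocytes are the star-shaped glia that clear glutamate and potassium from around synapses, carry water and bicarbonate across their membranes, and wrap blood vessels with their endfeet. Glutamate taken up through Slc1a2 and Slc1a3 is turned into glutamine by glutamine synthetase and handed back to neurons. The intermediate filament proteins of Gfap and Vim build the astrocytic cytoskeleton, and Gfap is the common marker of reactive astrocytes and of glial ageing. In whole hippocampal tissue, fewer astrocytes and less RNA per astrocyte cannot be told apart.

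The regions just before the annotated starts of Fgfr3, Slc4a4 and Glul are shown because probe sets of these genes passed the test described below. They come from RefSeq, build GRCm38.p6, and hold the 250 bases before the start on the plus strand, 5′ to 3′. For Fgfr3 and Slc4a4 the start farthest upstream was taken. Capitals mark matches to the motifs named after them.
Fgfr3, chr5:33721474-33721723: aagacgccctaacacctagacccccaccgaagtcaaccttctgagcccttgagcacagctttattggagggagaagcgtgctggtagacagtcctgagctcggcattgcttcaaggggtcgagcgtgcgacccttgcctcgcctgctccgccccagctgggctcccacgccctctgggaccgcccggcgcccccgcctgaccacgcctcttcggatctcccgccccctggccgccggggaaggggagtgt
Slc4a4, chr5:88887010-88887259: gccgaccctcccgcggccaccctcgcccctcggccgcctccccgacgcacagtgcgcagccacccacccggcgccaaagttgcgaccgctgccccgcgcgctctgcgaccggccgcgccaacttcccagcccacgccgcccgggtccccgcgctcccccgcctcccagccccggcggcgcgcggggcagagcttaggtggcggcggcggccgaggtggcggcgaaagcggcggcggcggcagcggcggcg
Glul, chr1:153899679-153899928: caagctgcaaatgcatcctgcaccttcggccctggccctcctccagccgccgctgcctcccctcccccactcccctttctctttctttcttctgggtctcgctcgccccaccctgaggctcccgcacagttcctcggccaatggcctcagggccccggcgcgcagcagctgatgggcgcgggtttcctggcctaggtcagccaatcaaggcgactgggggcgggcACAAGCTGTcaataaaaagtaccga

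Windows of this length were found for 8 of the 9 measured genes, 11 windows in all. Aqp4, whose probe sets also passed the test, had no window and is therefore not shown. The windows found were described as follows. They were searched on both strands for TTCNNNGAA, the STAT site, for ACANNNTGT, the core of the glucocorticoid response element, and for TTGGC followed after 5 further bases by GCCAA, the nuclear factor I site. Of 32851 windows in the table, 7.02% held the first, 5.84% the second and 0.0365% the third. Among the member genes, Glul held 1 match to ACANNNTGT, capitalised above, and Slc1a2 held 1 as well. A second window of Aldoc held 2 matches to TTCNNNGAA that did not overlap each other. The windows of Fgfr3, Slc4a4, Gfap, Vim and Gja1 held 0 matches to any of the 3 motifs. The printed window of Slc4a4 was 82% G and C, that of Fgfr3 66.8% and that of Glul 64.8%. Slc4a4 and Fgfr3 each had a second window, at 48.8% and 72.8%, against a median of 52.4% over all windows. Matches are a description of these letters only.

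RNA and array quality differed between the diets. The log2 ratio of 3′ to 5′ control signal, averaged over Gapdh and Actb, grows when RNA is broken or incompletely copied. It ran from -0.12 to 0.45 in control mice and was 0.79, 0.78, 5.20, 1.52 and 6.11 in calorie restricted replicates 1 to 5. The mean log2 signal of bacterial spike-in probe sets ran from 10.50 to 11.80 in control and from 12.41 to 13.67 in calorie restricted mice. The groups were apart in both measures (exact two-sided permutation p = 0.00794 each, the smallest that 252 splits allow; adjusted p = 0.00794 over 3 measures, with median log2 signal the third). Calorie restricted replicates 3 and 5 stood apart from the other 3 in RNA quality, so values without both are given where they change a result.

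In calorie restricted mice the water channel gene Aqp4 and the bicarbonate cotransporter gene Slc4a4 were lower. The growth factor receptor gene Fgfr3 was lower in its 1 tested probe set, which had enough signal to be tested only through its control arrays. Glul was higher in 1 probe set and lower in another. Gfap, Vim, Gja1, Slc1a2 and Aldoc did not pass the test. Of the 14 probe sets, 13 had a mean log2 signal of at least 6.85 and were tested; 1 of the 2 probe sets of Fgfr3 lay below. In limma, 1 of the 13 was higher and 5 were lower in calorie restricted mice at a Benjamini-Hochberg adjusted p under 0.05, and 7 did not pass. Of all 7453 tested probe sets, 883 passed, or 11.8%, of which 4.11% of all were higher and 7.74% lower. That split was 306 higher and 577 lower on the deposited scale. It was 322 and 279 under quantile normalization and 575 and 266 with each array centred on its median. The median log2 change of all tested probe sets was -0.15, and changes below are given relative to it, as calorie restricted minus control. The median relative change of the 13 probe sets was -0.53, within a range from -1.96 to 2.02. The groups did not overlap in 6 of the 13, against 14.3% of all tested probe sets, with 1 higher (4.96% of all) and 5 lower (9.35% of all). These 6 hold both probe sets of Aqp4 and both of Glul. The members were chosen with earlier results of these data known, so the shares are a description only. An unadjusted p under 0.05 was found for 7 of the 13 and for 31.6% of all.

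Adjusted p-values test the change before this median is taken off. With each array centred on its median, 1 was higher and 3 were lower. Over all 7453 probe sets the log2 change then had a median of 0.06. That setting thus tests a change close to the relative change but not equal to it. The count of 6 was 1 with RNA quality as a covariate, and 0 in limma once spike-in signal was added to it, where 2 had an unadjusted p under 0.05. That last fit hardly separates diet from its covariates, with an R2 of diet on both of 0.85. Leaving out 1 array gave 3, 4, 1, 2 and 4 without control replicates 1 to 5 in turn. Without calorie restricted replicates 1 to 5 in turn the count was 6, 6, 4, 3 and 7. With calorie restricted replicates 3 and 5 both left out it was 7.

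**Figure D1:**
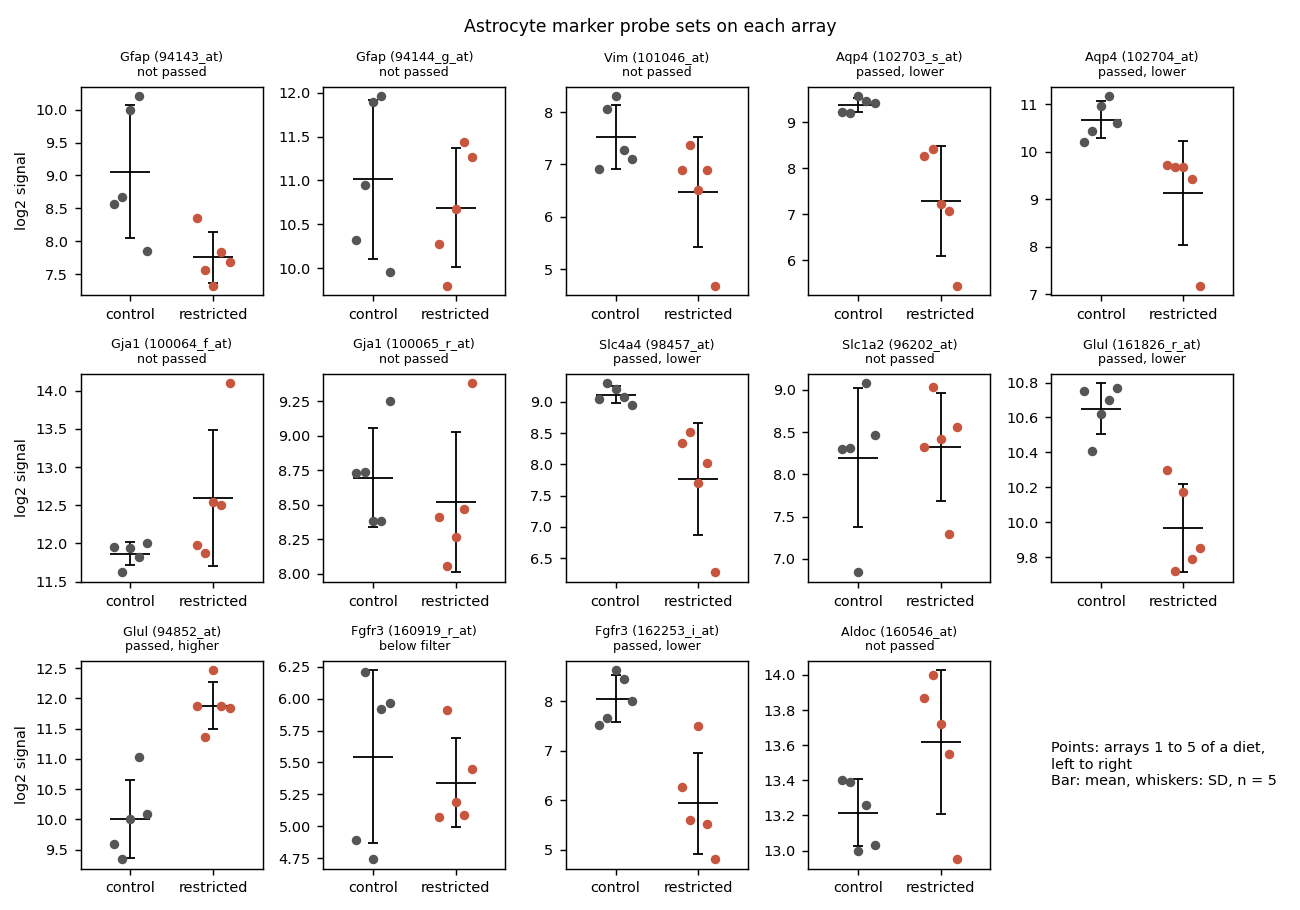
Log2 signal (y axis) of the 14 astrocyte marker probe sets on each of the 10 arrays, by diet; grey points are control and red points calorie restricted arrays, 1 to 5 from left to right, with the mean as a bar and the SD as whiskers (n = 5). The groups do not overlap in the 6 panels marked as passed, and the 2 probe sets of Glul run in opposite directions.

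The water channel and the bicarbonate cotransporter gave 3 of the 5 probe sets that fell. Aqp4 encodes the water channel of the endfeet, and both of its probe sets were lower in every calorie restricted mouse than in any control mouse. Slc4a4, the sodium bicarbonate cotransporter that helps set extracellular pH, was lower in the same way. Relative to the median change, Aqp4 was lower 3.83-fold in 1 probe set and 2.62-fold in the other, and Slc4a4 2.28-fold.

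In probe set 102703_s_at, which can match several transcripts, Aqp4 had log2 signals of 9.23, 9.20, 9.56, 9.46 and 9.41 in control replicates 1 to 5. In calorie restricted replicates 1 to 5 it had 8.27, 8.42, 7.22, 7.06 and 5.45. The control mice lay within 0.359 of each other, while the restricted mice spread widely, with replicate 5 lowest. Relative to the median it changed by -1.94 ± 0.46 (SE, n = 5 per diet; limma adjusted p = 0.0192). It was -1.35 without calorie restricted replicates 3 and 5 (limma adjusted p = 0.0146) and -0.94 in the fit with RNA quality, short of the threshold (limma adjusted p = 0.118). It also missed the threshold without control replicate 3, at -1.88 (limma adjusted p = 0.0514).

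In probe set 102704_at, Aqp4 had 10.21, 10.44, 10.97, 11.17 and 10.60 in control replicates 1 to 5. It had 9.72, 9.68, 9.67, 9.42 and 7.18 in calorie restricted replicates 1 to 5. Calorie restricted replicates 1 to 4 lay close together just below the control range, and replicate 5 lay far below them. Its relative log2 change was -1.39 ± 0.44 (SE; limma adjusted p = 0.0423). Without replicate 5 it was -0.93 and still passed, and without replicates 3 and 5 it was -0.97 (limma adjusted p = 0.0153). Leaving out any 1 of the 5 control replicates, or calorie restricted replicate 3 or 4, lost the call. The values were then -1.51, -1.45, -1.31, -1.26 and -1.42 with control replicates 1 to 5 left out in turn, and -1.52 and -1.46 for the restricted ones (limma adjusted p from 0.0601 to 0.101). With RNA quality as a covariate it was -0.62 (limma adjusted p = 0.329) and with spike-in signal added it turned to 0.26 (limma adjusted p = 0.971). Centred on array medians it missed the threshold (limma adjusted p = 0.0564).

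Slc4a4 had log2 signals of 9.04, 9.30, 9.20, 9.08 and 8.95 in control replicates 1 to 5. The values in calorie restricted replicates 1 to 5 were 8.34, 8.52, 7.70, 8.02 and 6.27. As in both probe sets of Aqp4, replicate 5 was lowest; the control mice lay within 0.354 of each other. The relative change was -1.19 ± 0.36 (SE; limma adjusted p = 0.0354), and it was -0.72 with calorie restricted replicates 3 and 5 left out (limma adjusted p = 0.0217). With RNA quality as a covariate it was -0.42, short of the threshold (limma adjusted p = 0.301). The call was lost without any 1 of control replicates 1 to 5, at -1.21, -1.15, -1.16, -1.19 and -1.24. It was also lost without calorie restricted replicate 3 or 4, at -1.17 and -1.25 (limma adjusted p from 0.0552 to 0.0816 over these 7).

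Gja1, the main connexin of astrocytes, which joins them through gap junctions, passed in neither of its 2 probe sets. Probe set 100064_f_at, which can match a family of related sequences, had 11.95, 11.62, 11.94, 11.82 and 12.00 in control replicates 1 to 5. In calorie restricted replicates 1 to 5 it had 11.98, 11.87, 12.54, 12.50 and 14.10. Here replicate 5 was the highest array, where Aqp4 and Slc4a4 were lowest, and replicates 1 and 2 lay within the control range. Relative to the median it changed by 0.89 ± 0.35 (SE; unadjusted 95% interval 0.13 to 1.64; limma adjusted p = 0.170), or 0.36 once calorie restricted replicates 3 and 5 were left out. With RNA quality as a covariate it was 0.042. The interval is of the relative change, while the adjusted p tests the change of 0.73 before the median was taken off. The brightest 1491 tested probe sets, this one among them, had a median relative change of 0.28. Probe set 100065_r_at, chosen by the maker under relaxed rules, had 8.70 ± 0.36 in control and 8.52 ± 0.51 in calorie restricted mice (SD, n = 5). Its relative change was -0.03 (unadjusted 95% interval -0.61 to 0.56; limma adjusted p = 0.664), and its sign turned under quantile normalization, at 0.064.

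**Figure D2:**
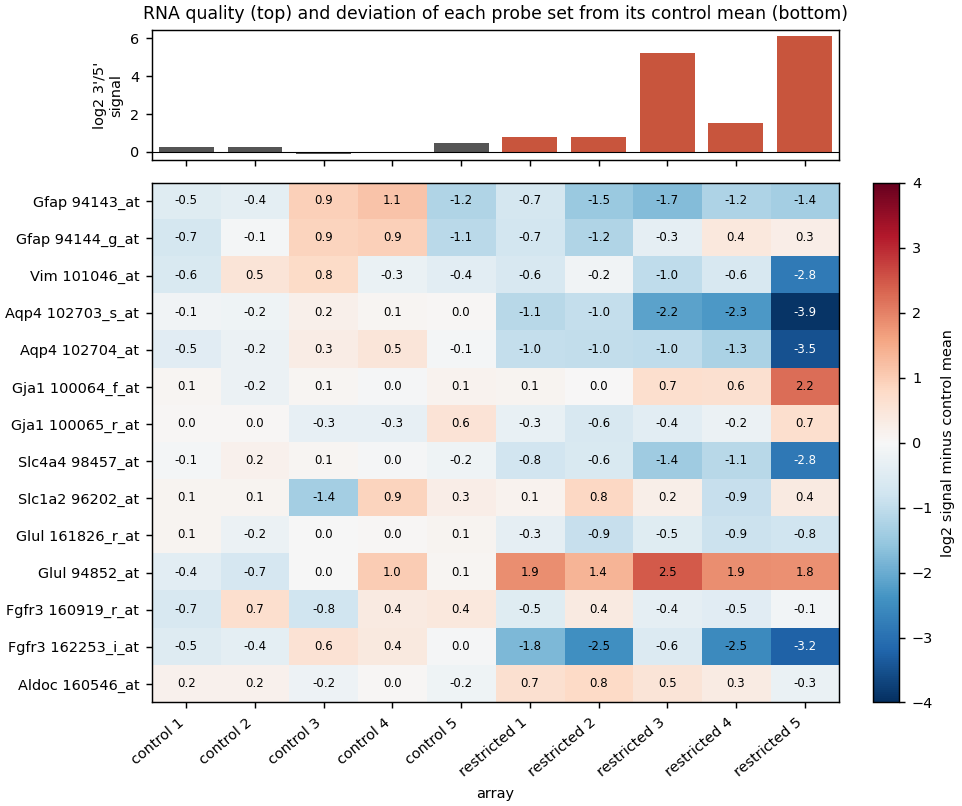
Upper panel: log2 ratio of 3′ to 5′ control signal on each array, the measure of RNA quality. Lower panel: log2 signal of each probe set minus its control mean, coloured from blue (lower) to red (higher); calorie restricted replicate 5 is the lowest array for both probe sets of Aqp4, for Slc4a4, Vim, Fgfr3 (162253_i_at) and Aldoc, and the highest for both of Gja1.

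Fgfr3 encodes a fibroblast growth factor receptor that astrocytes carry from early in their development. Its probe set 162253_i_at, which rests on fewer probes, had 7.53, 7.66, 8.63, 8.44 and 8.01 in control replicates 1 to 5. The values in calorie restricted replicates 1 to 5 were 6.26, 5.60, 7.50, 5.52 and 4.81. The groups did not overlap, and restricted replicate 3 lay just below the lowest control mouse, replicate 1. Its relative log2 change was -1.96 ± 0.47 (SE; limma adjusted p = 0.0205), a 3.89-fold lower signal. It was -2.16 without calorie restricted replicates 3 and 5 (limma adjusted p = 0.00856). With RNA quality as a covariate the size was -2.05, although it did not pass (limma adjusted p = 0.0669). Without control replicates 3 and 4 in turn it was -1.81 and -1.86, short of the threshold (limma adjusted p = 0.0587 and 0.0554).

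The mean of Fgfr3 in calorie restricted mice, 5.94, lay below 6.85, the lowest mean signal tested. Probe set 162253_i_at thus entered the test only through its control arrays, which favours a fall, and the size of that fall is uncertain. The dimmest 1491 tested probe sets, with means up to 7.71, had a median relative change of -0.26 themselves, and the brightest 1491 had 0.28. The other probe set of Fgfr3, 160919_r_at, was too dim to be tested. It had 5.55 ± 0.68 in control and 5.34 ± 0.35 in calorie restricted mice (SD, n = 5), and the groups overlapped.

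Among genes of glutamate handling, Glul gave opposite answers in its 2 probe sets. Glul encodes glutamine synthetase, which turns glutamate and ammonia into glutamine and is concentrated in astrocytes. Probe set 94852_at rose 4.06-fold relative to the median change, and probe set 161826_r_at fell 1.44-fold.

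Probe set 94852_at had log2 signals of 9.60, 9.34, 10.01, 11.03 and 10.09 in control replicates 1 to 5. In calorie restricted replicates 1 to 5 it had 11.87, 11.37, 12.47, 11.87 and 11.84. Every restricted mouse was above every control mouse, and control replicate 4 came nearest. The relative change was 2.02 ± 0.30 (SE; limma adjusted p = 0.00662), the 41st smallest p of 7453. It passed with each array left out in turn, at 1.85 to 2.28, and at 1.79 with calorie restricted replicates 3 and 5 both gone. In the fit with RNA quality it was still called, at 1.76 (limma adjusted p = 0.0296), the only one of the 13 to do so. With spike-in signal added it was 3.14 and did not (limma adjusted p = 0.130).

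Probe set 161826_r_at had 10.75, 10.41, 10.62, 10.70 and 10.77 in control replicates 1 to 5. The values in calorie restricted replicates 1 to 5 were 10.30, 9.72, 10.17, 9.79 and 9.85. Every restricted mouse was below every control mouse, with restricted replicate 1 nearest to control replicate 2. Relative to the median it changed by -0.53 ± 0.17 (SE; limma adjusted p = 0.0254), or -0.61 once calorie restricted replicates 3 and 5 were left out. It missed the threshold with arrays centred on their median (limma adjusted p = 0.0951) or with RNA quality in the fit, at -0.61 (limma adjusted p = 0.0602). The call was also lost without control replicates 1, 3, 4 and 5, at -0.51, -0.53, -0.51 and -0.51, and without calorie restricted replicate 4, at -0.48 (limma adjusted p from 0.0551 to 0.0644). No single direction can thus be given for Glul, and the median over probe sets above holds both.

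Slc1a2 encodes GLT-1, the transporter that takes up most glutamate in the forebrain. It had 8.30, 8.31, 6.84, 9.08 and 8.47 in control replicates 1 to 5. In calorie restricted replicates 1 to 5 it had 8.33, 9.03, 8.42, 7.29 and 8.56. The diets overlapped fully, and the lowest array was control replicate 3. Its relative log2 change was 0.28 ± 0.41 (SE; unadjusted 95% interval -0.61 to 1.17; limma adjusted p = 0.855), so a change of either sign within that interval was not resolved. Without control replicate 3 it was -0.055.

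**Figure D3:**
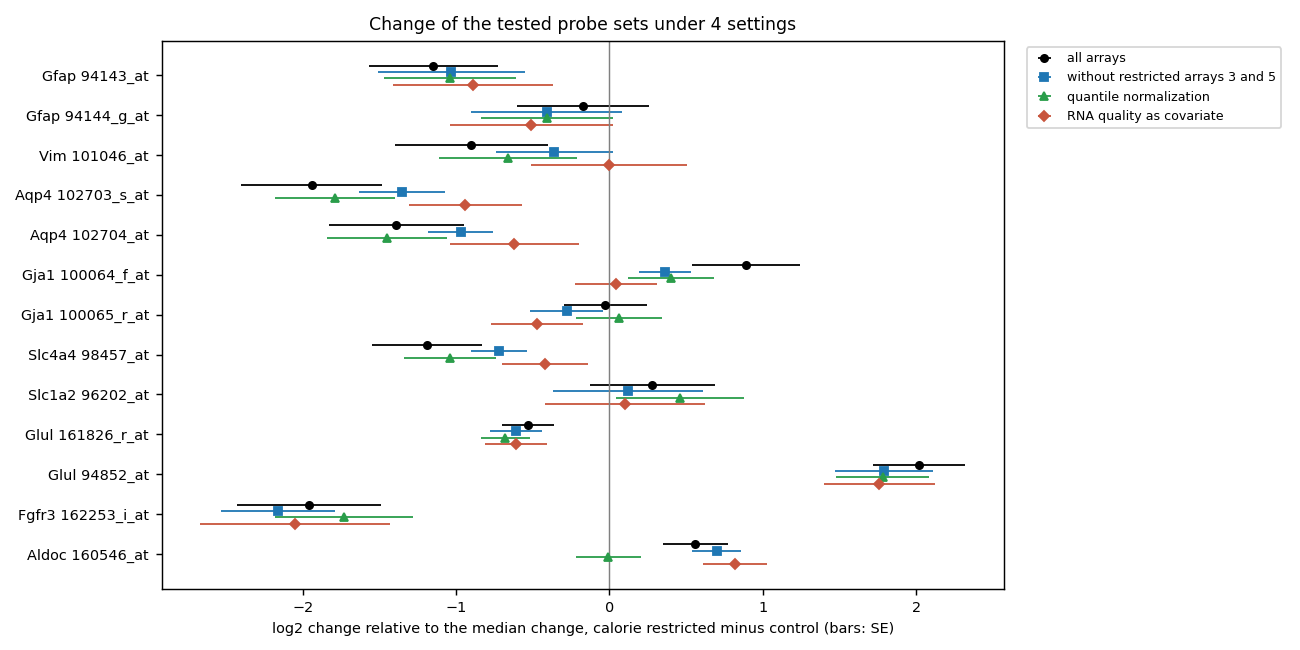
Log2 change of the 13 tested probe sets relative to the median change, calorie restricted minus control (x axis), with the SE as bars, for all arrays, without calorie restricted replicates 3 and 5, under quantile normalization and with RNA quality as a covariate. Glul 94852_at lies between 1.76 and 2.02 and Fgfr3 between -2.16 and -1.73 in these 4 settings, while Aqp4, Slc4a4, Vim and Gja1 100064_f_at lie nearer to 0 with RNA quality as a covariate.

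The intermediate filament genes did not pass, and Gfap varied strongly among the control arrays. Probe set 94143_at of Gfap had 8.56, 8.68, 10.00, 10.20 and 7.86 in control replicates 1 to 5. The values in calorie restricted replicates 1 to 5 were 8.36, 7.57, 7.33, 7.84 and 7.69. Of the restricted mice, 4 of 5 lay below the lowest control mouse, control replicate 5. The control SD of 1.01 was larger than that of 96.5% of tested probe sets, whose median was 0.28. The relative change was -1.15 ± 0.42 (SE; unadjusted 95% interval -2.06 to -0.24) and missed the threshold (limma adjusted p = 0.0616). With single arrays left out it passed only without control replicate 5, at -1.46 (limma adjusted p = 0.0346).

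Probe set 94144_g_at of Gfap had 10.32, 10.95, 11.89, 11.96 and 9.95 in control replicates 1 to 5. In calorie restricted replicates 1 to 5 it had 10.27, 9.80, 10.67, 11.44 and 11.27. Control replicates 3 and 4 were highest and control replicate 5 lowest of the control mice in both probe sets. Of the control arrays, replicates 3 and 4 also had the lowest 3′ to 5′ log2 ratios, -0.12 and -0.07. Their spike-in signals were the lowest too, at 10.50 and 10.62. Control replicate 5 had the highest 3′ to 5′ log2 ratio of the control arrays, 0.45. The part of these measures in the spread of Gfap was not tested. In the restricted mice the probe sets ordered the arrays differently, and replicates 4 and 5 were the highest of them here. Relative to the median it changed by -0.17 ± 0.43 (SE; unadjusted 95% interval -1.10 to 0.76; limma adjusted p = 0.627). It was 0.056 and 0.072 without control replicates 3 and 4 and 0.062 without calorie restricted replicate 2, so no direction can be given for this probe set.

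Vim, the filament of immature and reactive astrocytes that vessels and meninges express as well, had 6.92, 8.05, 8.30, 7.28 and 7.10 in control replicates 1 to 5. The values in calorie restricted replicates 1 to 5 were 6.90, 7.38, 6.51, 6.90 and 4.69. Of the restricted mice 4 of 5 lay below the lowest control mouse, 2 of them by less than 0.1. Its relative log2 change was -0.90 ± 0.50 (SE; unadjusted 95% interval -1.99 to 0.19; limma adjusted p = 0.172). Without calorie restricted replicates 3 and 5 it was -0.36, and in the fit with RNA quality -0.0034. Its mean in restricted mice, 6.48, was also below the lowest mean tested.

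Aldoc encodes aldolase C, the brain form of the glycolytic enzyme, which astrocytes share with Purkinje cells. Its signals were 13.40, 13.39, 13.00, 13.26 and 13.03 in control replicates 1 to 5. In calorie restricted replicates 1 to 5 they were 13.87, 14.00, 13.72, 13.55 and 12.95. Restricted replicates 1 to 4 were above every control mouse and replicate 5 below every one. The relative change was 0.56 ± 0.21 (SE; unadjusted 95% interval 0.11 to 1.01; limma adjusted p = 0.199) and did not pass. The interval is of the relative change, while the adjusted p tests the change of 0.4 before the median was taken off. Without calorie restricted replicate 5 it was 0.70 and passed (limma adjusted p = 0.0314), as it did without replicates 3 and 5 (limma adjusted p = 0.0374). Under quantile normalization it was -0.0073, so its direction depends on the scaling. Its mean signal lay at percentile 99.4 of the array, and the brightest 1491 tested probe sets had a median relative change of 0.28.

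The spread within a diet was larger among restricted mice in 9 of the 14 probe sets. Over all tested probe sets it was larger in 76%, with a median ratio of SDs of 1.65. The ratio was 7.81 and 2.81 for the probe sets of Aqp4, 6.45 for Slc4a4 and 5.75 for Gja1 100064_f_at. For Gfap it was 0.381 and 0.759, the opposite of most of the array, and for Glul 94852_at 0.605. Calorie restricted replicate 5 was the lowest of all 10 arrays for 6 of the 14 probe sets, and the highest for 2. It also had the highest 3′ to 5′ ratio; the part of RNA quality in these values was not tested beyond the fits given.

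Other genes typical of astrocytes gave 1 rise and 1 fall. Of a list of 40, 29 had a probe set and 28 were tested, each by its brightest probe set. In limma 1 rose, 1 fell and 26 did not pass, or 7.14% called against 10.5% of all 5695 genes tested that way. The median relative change was 0.03, with 14 genes above 0 and 14 below. Atp1b2, the beta subunit of the sodium pump in astrocytes, fell by 2.12 on the log2 scale (SE 0.35; limma adjusted p = 0.00648). Its log2 signals were 8.15 to 9.50 in control and 5.99 to 7.73 in calorie restricted mice. The restricted mean, 6.8, lay just below 6.85, the lowest mean tested. Atp1b2 thus entered the test through its control arrays, and the size of this fall is uncertain. Dio2, the deiodinase that makes active thyroid hormone in astrocytes, rose by 1.23 ± 0.29 (SE; limma adjusted p = 0.0366). Its signals averaged 8.85 ± 0.16 in control and 9.92 ± 0.7 in calorie restricted mice (SD, n = 5), and were highest in calorie restricted replicate 5, and without replicate 5 the change was 0.89 (limma adjusted p = 0.0147). Dio2 lost its call in the fit with RNA quality, at 0.56 (limma adjusted p = 0.286). It also lost it without any 1 of control replicates 1 to 5 and without calorie restricted replicate 3, at 1.16 to 1.26 (limma adjusted p from 0.0644 to 0.0804). Atp1b2 passed in each of these fits, and lost its call with spike-in signal added to RNA quality, at -1.47 (limma adjusted p = 0.473).

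The smallest relative changes in that list were those of Gys1, glycogen synthase, at -0.02, Bcan, the matrix proteoglycan brevican, at -0.06, and S100b, a calcium-binding protein, at 0.07. Bcan had 2 tested probe sets, and only the brightest is given here. With all arrays, the other changed in the opposite direction before the median was taken off. The count of 2 was 1 without any 1 of the control replicates and without calorie restricted replicate 3, and 5 without replicate 2. Without calorie restricted replicates 3 and 5 it was 4. Added to Atp1b2 and Dio2 were then Apoe, apolipoprotein E, at 0.85 ± 0.15 (SE; limma adjusted p = 0.0154), and Bcan at 0.66 ± 0.15 (limma adjusted p = 0.0377). Both were called too once RNA quality was in the fit, at 1.14 and 1.01 (limma adjusted p = 0.0224 and 0.0419), where Atp1b2 was the third gene called and Dio2 was not. Apoe was named after its values were seen.

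**Figure D4:**
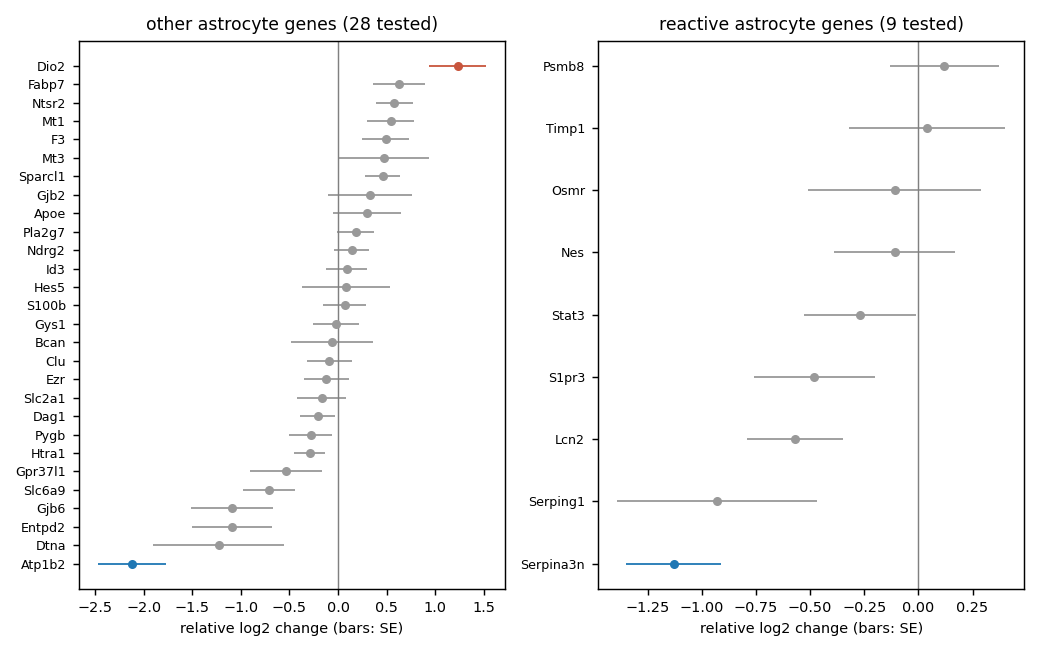
Relative log2 change with its SE (x axis) of the 28 tested genes of the astrocyte list (left) and the 9 of the reactive astrocyte list (right); red passed as higher, blue passed as lower, grey did not pass. The genes of the left panel lie on both sides of 0, and 7 of the 9 in the right panel lie below 0.

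Of 16 genes raised in reactive astrocytes, 12 had a probe set and 9 were tested. Of these 0 rose, 1 fell and 8 did not pass, or 11.1%, close to the 10.5% of all genes. The median relative change was -0.27, with 7 of 9 below 0. Serpina3n, a secreted serine protease inhibitor, fell by 1.13 on the log2 scale (SE 0.22; limma adjusted p = 0.00819). It had 10.93 to 11.40 in control and 9.22 to 10.47 in calorie restricted mice, and the call held at -1.30 once RNA quality was in the fit (limma adjusted p = 0.0205). With spike-in signal added it was -0.42 and was not called (limma adjusted p = 0.666). Timp1, a metalloprotease inhibitor, lay nearest to the median change, at 0.04, followed by the filament nestin, Nes, and the oncostatin M receptor, Osmr, each at -0.11 and none past the threshold. Without calorie restricted replicate 5 the count was 2, with Lcn2, a lipocalin, at -0.70 (limma adjusted p = 0.0285), named after its values were seen.

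Markers of other cell types of the tissue were measured on the same arrays, and their part in the results above was not tested. Of 37 tested genes in 5 lists 1 rose and 10 fell; with arrays centred on their median 4 rose and 3 fell. Among 11 neuronal genes 1 rose and 3 fell, with Thy1 at 0.79 and Syt1, a vesicle calcium sensor, Map2, of the dendritic cytoskeleton, and the neurofilament gene Nefl at -3.40, -2.83 and -1.01. The relative change was above 0 in 8 of the 11, with a median of 0.28. The mean log2 signal of that list ran from 11.37 to 11.54 in control and from 10.49 to 11.62 in restricted mice. Of 7 oligodendrocyte genes 0 rose and 3 fell, with Ugt8a, an enzyme of myelin lipid synthesis, at -1.71 and the myelin genes Cldn11 at -0.64 and Mal at -0.47, and a mean of 10.53 to 10.76 against 9.43 to 10.73. Another 2 of the 7 lay above 0, Mobp at 0.87 (limma adjusted p = 0.0511) and Mog at 0.22. Mobp is given by the brightest of its 4 tested probe sets. The other 3 changed in the opposite direction before the median was taken off. Of 9 microglial genes 0 rose and 2 fell, Cx3cr1 at -0.95 and Cd68 at -0.71, with a mean of 9.67 to 10.08 against 8.85 to 9.87. Of the 9, 4 lay above 0, among them Aif1 at 1.31, with every restricted mouse above every control mouse (limma adjusted p = 0.0520). The means of Map2 and Ugt8a in restricted mice, 5.9 and 6.16, and of Aif1 in control mice, 6.49, lay below 6.85. That is the lowest mean tested, so these genes entered the test through the other diet's arrays, and the sizes of these changes are uncertain. Map2, Nefl, Ugt8a, Mobp, Mog and Aif1 were named after their values were seen.

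Of 5 endothelial genes 0 passed in limma, and 0 had an unadjusted p under 0.05, led by Pecam1 at 0.80 and the efflux pump gene Abcb1a at 0.45, with a mean of 7.13 to 7.75 against 7.33 to 8.27. Of 5 choroid plexus and ependymal genes 0 rose and 2 fell, Folr1 at -1.36 and Foxj1 at -0.84, with a mean of 8.88 to 10.23 against 7.36 to 9.82. The means of the 28 astrocyte genes ran from 10.20 to 10.49 in control and from 9.68 to 10.27 in calorie restricted mice. All these counts and changes are from the same limma fit, in which 4.09% of genes were higher and 6.44% lower. The count of 11 was 7 with calorie restricted replicates 3 and 5 left out, and 2 in the fit with RNA quality.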

How the data were processed

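Hippocampal total RNA of 10 mice, 1 per array, was measured. The authors deposited intensity values made with MAS5, as the submitters' processing notes name it with no version. In the deposited intensity table, the mean without the lowest and highest 2% was 500.2 to 500.4 on every array. Of 124880 values, 41 lay under 1 and were raised to 1 before log2 was taken. The 66 Affymetrix control probe sets were not tested. Probe sets under the 40th percentile of mean log2 signal were not tested. Diets were compared in limma 3.58.1 (R 4.3.3; lmFit, eBayes with trend, no covariate), with Benjamini-Hochberg adjustment over 7453. The number of arrays limits the precision. Symbols came from the platform annotation: 10833 probe sets had 1, 396 several and 1193 none; 10817 were matched to RefSeq by gene number. No positions of probe sets are given, since no source used here names their build; the printed windows are in RefSeq's build.

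The members and gene lists were chosen with earlier results of these data known. The text names all member probe sets, and, of the astrocyte and reactive astrocyte lists, the genes past the threshold and the 3 smallest changes in each. It also names the 2 smallest p-values in each list of other cell types; exceptions are stated. In data simulated for this comparison with 7453 probe sets, the fit recovered 6%, 44%, 84% and 96% of 50 each changed by 0.5, 1, 2 and 3 on the log2 scale, with 4 false among 119 calls. Those percentages and that count of false calls describe the simulated data only. On the real arrays RNA quality, spike-in signal and spread differed between the diets, and the rate of false calls there was not tested. Other settings were 12, besides leaving out each of 10 arrays.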

Additional observations from a re-analysis of the deposited data

Results flagged for a closer look

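In 1 of 34 groups of 5 arrays examined, 1 array stood far from the others. The Aqp4 probe set 102704_at had a log2 signal of 7.18 in calorie restricted replicate 5, against 9.42 to 9.72 in the other 4 restricted mice. This gap was 0.89 of the group's range, above the 95% critical value of 0.71 (Dixon's test for 5 values). About 1 group in 20 passes this limit by chance, and the groups examined share arrays. Whether this gap arose by chance was not tested. Calorie restricted replicate 5 also had the highest 3′ to 5′ ratio of control signals, 6.11 on the log2 scale.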

How the results depend on the processing

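Of 261 values of the 14 probe sets under other settings, 207 kept their direction and their side of the threshold, 36 kept the direction and lost the call, 3 gained it and 15 turned. With spike-in signal added to RNA quality in the fit, Gfap turned to 0.93 (94143_at) and 2.11 (94144_g_at), Vim to 0.50, Aqp4 102704_at to 0.26 and Slc1a2 to -1.46, with 0 of 7453 probe sets past the threshold in limma and 907 at an unadjusted p under 0.05. That fit also called 0 of the members, of the astrocyte, the reactive astrocyte and the other cell type genes, with 2, 4, 1 and 6 at an unadjusted p under 0.05. Gja1 100065_r_at turned to 0.064 under quantile normalization and 0.043 with no filter on signal, and Aldoc to -0.0073 under quantile normalization. With single arrays left out, Gja1 100065_r_at ran from -0.27 to 0.10 (0.10 without control replicate 5, 0.094 and 0.040 without calorie restricted replicates 2 and 3), Gfap 94144_g_at from -0.44 to 0.072 (0.056 without control replicate 3 and 0.062 without calorie restricted replicate 2) and Slc1a2 from -0.055 to 0.54. Why these values turned was not tested.

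With RNA quality as a covariate 333 probe sets passed, 1 member and 2 other cell type genes. At an adjusted p under 0.10 there were 1627 probe sets, 6 astrocyte and 2 reactive astrocyte genes. Without calorie restricted replicates 3 and 5, 4 astrocyte genes passed and 7 of other cell types. The latter count was also 7 with centred arrays and with no filter. Reactive astrocyte genes past the threshold were 2 with an offset of 32, without a variance trend, with array weights and with probe sets of a gene averaged. Leaving out single arrays gave 253 to 1251 probe sets, 1 to 7 members, 1 to 5 astrocyte genes, 1 to 2 reactive astrocyte genes and 3 to 12 of other cell types. Fits with fewer arrays have less power, but the count of 883 probe sets also rose, to 1251 without calorie restricted replicate 2. It was lowest, at 253, without control replicate 2. Why it depended on the array left out was not tested.

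The replicate numbers are shared between diets, but deviations of same-numbered arrays correlated at -0.08 to 0.17 only, so they were not taken as pairs. With the replicate block 540 probe sets passed, 5 members, 1 astrocyte gene and 6 of other cell types; among members Glul 161826_r_at lost its call (limma adjusted p = 0.0536), as did Dio2 (limma adjusted p = 0.0633). Detection calls were not used here, so signals near the lowest mean tested have unknown background.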
